A study of Mus musculus with 8 samples.

Results

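The 34 genes described here are enzymes of glycolysis, regulators of the response to low oxygen and targets of that response, taken by name from the 49212 genes of the count files. The study compared effector regulatory T cells (eTreg, the CD44-positive regulatory T cells) from spleen and from B16.OVA melanoma in mice with and without the gene Prdm1 in cells that express Foxp3. RNA sequencing covered 8 libraries, 2 in each of 4 groups. WT mice carried FoxP3YFP-Cre alone and KO mice carried Prdm1fl/fl with FoxP3YFP-Cre, on the C57BL/6 strain. The Cre was driven by Foxp3 and was present in both genotypes. Each mouse received B16.OVA cells under the skin at day 0, and was immunized into the peritoneum with NP-OVA, in CFA on that day and in IFA on day 7. Cells were sorted from spleen and tumor as CD45+ CD44+ YFP+ CD4+ CD3+ once the tumor was at most 1.5 cm3. By the methods of the study, mice were 5 to 10 weeks old unless stated otherwise, and comparison groups held males and females. The labels do not say whether the 2 replicates of a group were separate mice, or whether spleen and tumor libraries with the same number came from the same mouse, so a p-value here measures the spread between these libraries.

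Glycolysis splits glucose into pyruvate in the cytosol and yields ATP without oxygen, and lactate dehydrogenase then turns pyruvate into lactate. When oxygen is scarce, the hypoxia-inducible factors (HIF) are no longer marked for destruction by prolyl hydroxylases and the VHL protein, and they switch on most glycolytic enzymes along with genes for vessel growth, mitophagy and protein folding. In T cells the same enzymes also rise on activation, and in regulatory T cells glycolysis is linked to proliferation and migration.

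Levels are given as CPM (the scaled share a gene takes of all counts on genes in its library, with TMM factors over the 8 libraries), and in all sentences with 2 values for a group replicate 1 stands before replicate 2. Libraries held 30539772 and 28269666 counts in WT spleen, 43903859 and 35076472 in KO spleen, 29724913 and 30854014 in WT tumor, and 35318365 and 27834676 in KO tumor. A level of 3 counts, taken as the floor, corresponded to between 0.0644 and 0.112 CPM. Replicates differed by more than counting noise in every group, with a chi-square per degree of freedom of 37.2 in KO spleen, 113 in WT tumor, 315 in WT spleen and 344 in KO tumor. Prdm1 itself lay at 54.1 and 21 CPM in WT spleen, 40.7 and 53.4 in KO spleen, 108 and 192 in WT tumor, and 90.7 and 75.1 in KO tumor. It was lower in both tumor libraries labelled KO than in both labelled WT, with a log2 fold change of -0.863 (SE 0.375, edgeR adjusted p 0.554), while the genotypes overlapped in spleen, at 0.324 (SE 0.486, adjusted p 0.894). The files count reads over all exons of Prdm1, deleted or not.

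Markers of sorted and other cells differed between the libraries. The 8 markers of Treg and CD4 T cells summed to 5737 and 5498 CPM in WT spleen, 4874 and 4813 in KO spleen, 9143 and 12835 in WT tumor, and 1499 and 3402 in KO tumor, with Ctla4, Cd3e or Trac the most abundant and none at 0. Both KO tumor libraries were lowest on that sum, and Foxp3 itself lay at 69.6 and 58.1 CPM in WT spleen, 43.1 and 56.4 in KO spleen, 25.5 and 60.5 in WT tumor, and 10.2 and 2.99 in KO tumor. The 10 macrophage markers summed to 559 and 2667 CPM in WT spleen, 381 and 1084 in KO spleen, 3721 and 710 in WT tumor, and 16198 and 1984 in KO tumor, with Lyz2 the most abundant in every tumor library and none at 0. KO tumor replicate 1 stood far above the rest on that list. The 6 melanoma markers summed to 6.62 and 6.74 CPM in WT spleen, 3.69 and 5.48 in KO spleen, 2078 and 1140 in WT tumor, and 3201 and 830 in KO tumor, with Tyrp1 the most abundant in tumor and with Tyr and Slc45a2 at 0 in every spleen library. All 4 tumor libraries held melanoma transcripts. The 2 markers of CD8 T cells summed to 24.3 and 30.7 CPM in WT spleen, 15 and 17.5 in KO spleen, 148 and 48.3 in WT tumor, and 406 and 2222 in KO tumor, highest in KO tumor replicate 2. The 5 neutrophil markers summed to 0.779 and 19.9 CPM in WT spleen, 5.22 and 10 in KO spleen, 66.3 and 5.23 in WT tumor, and 382 and 200 in KO tumor, with S100a8 the most abundant in tumor and KO tumor highest. The 5 NK markers summed to 89.1 and 667 CPM in WT spleen, 60.9 and 126 in KO spleen, 461 and 99.7 in WT tumor, and 2024 and 344 in KO tumor, with Fcer1g the most abundant and with Ncr1 and Klra8 at 0 in every spleen library. Fcer1g led this sum in every library, and the order of the tumor libraries was that of the macrophage sum. The NK sum is thus not read as a measure of NK cells apart from macrophages. The 5 red cell markers summed to 173 and 1504 CPM in WT spleen, 299 and 87.7 in KO spleen, 3368 and 82.4 in WT tumor, and 820 and 774 in KO tumor, highest in WT tumor replicate 1, and WT spleen replicate 2 was the highest spleen library on the macrophage, NK and red cell sums. A change in a sorted library can come from a different mix of cells or from different RNA per cell, and in bulk RNA fewer cells of a type and less RNA per cell cannot be told apart.

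Several libraries stood apart. The SD over 10155 genes of the log2 ratio to the mean of the other libraries of the tissue was 0.417 and 0.892 in WT spleen, 0.451 and 0.387 in KO spleen, 0.477 and 0.921 in WT tumor, and 0.987 and 0.664 in KO tumor. WT spleen replicate 2, KO tumor replicate 1 and WT tumor replicate 2 were thus the furthest from the rest, and KO tumor replicate 1 held the most macrophage and melanoma transcripts. In WT spleen replicate 2 the log2 ratio to the mean of the other spleen libraries was lower for longer transcripts, with a rank correlation of -0.491 over the 10155 genes, which share the same libraries. Its median log2 ratio was -0.582 for genes with transcripts over 5000 nt and 0.878 for genes under 1500 nt. Of the genes described here, 6 were below a log2 ratio of -1 in that library: Ero1l, Hif1a, Hk1, P4ha1, Pfkl and Pfkp. In KO tumor replicate 1 the highest log2 ratio to the other tumor libraries was 3.02 for Vegfa and the lowest was -1.18 for Ddit4. In WT tumor replicate 2 the lowest was -2.21 for Vegfa, and in KO tumor replicate 2 it was -1.82 for Ldhb. For some genes the values without a library are given below. A fit without 1 library leaves its group with 1, so the spread then comes from the other groups alone, and calls of such fits are weak.

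The 34 genes summed to 8689 and 7518 CPM in WT spleen, 9722 and 8866 in KO spleen, 33766 and 30290 in WT tumor, and 28617 and 25622 in KO tumor, and every tumor library was above every spleen library. A gene counts as called where edgeR gave an adjusted p below 0.05 (Benjamini-Hochberg over all genes tested) and an absolute log2 fold change over 1. With tumor compared to spleen over both genotypes, 23 of the 34 genes were called higher and 0 lower by edgeR, beside 11.3% higher and 7.84% lower of the 17870 genes tested. At unadjusted p < 0.05 edgeR gave 28 higher and 2 lower, beside 18.4% and 17% of all genes, and DESeq2 called 24 higher and 0 lower, beside 12.6% and 8.03% of all genes with an adjusted p. In 28 of the 34 every tumor library was above every spleen library, beside 14.1% of all genes. The median log2 fold change of the 34 was 1.68, and that of all genes was -0.0710. Without WT spleen replicate 2 and KO tumor replicate 1 the median of the 34 was 1.58, and without WT tumor replicate 2 it was 1.77. Of the 23 genes, 18 were called in each of the 8 fits that left out 1 library, and the other 5 were Egln3 (6 fits), Pfkfb3, P4ha1 and Higd1a (3 each) and Epas1 (2). Of the 11 genes not called, 5 were called in some of those fits, higher for Hk1, Pfkfb4 and Hif1a (1 fit each), and lower for Ldhb (1 fit) and Ddit4 (2 fits).

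Within WT libraries 15 of the 34 were called higher in tumor and 0 lower by edgeR, beside 4.1% higher and 1.87% lower of all genes tested. In the fits without 1 library this count and that of all genes both moved. At unadjusted p < 0.05 edgeR gave 24 higher and 0 lower, beside 10.4% and 10.1% of all genes, and DESeq2 called 21 higher and 0 lower, beside 6.5% and 3.42% of all genes with an adjusted p. Both WT tumor libraries were above both WT spleen libraries for 30 of the 34, beside 25.1% of all genes. Within KO libraries 2 of the 34, Tpi1 and Pgk1, were called higher and 0 lower by edgeR, beside 0.803% higher and 0.543% lower of all genes. Calls in KO, of the 34 and of all genes alike, depended strongly on which library was left out. At unadjusted p < 0.05 edgeR gave 21 higher and 1 lower in KO, beside 17.4% and 13.7% of all genes, and DESeq2 called 21 higher and 1 lower, Ddit4, beside 13.1% and 6.58% of all genes with an adjusted p. Both KO tumor libraries were above both KO spleen libraries for 29 of the 34, beside 30.6% of all genes. With all WT libraries the median log2 fold change was 1.93 for the 34 and -0.0430 for all genes, and without WT spleen replicate 2 it was 1.84 for the 34. With all KO libraries it was 1.62 for the 34 and 0.0144 for all genes, and without KO tumor replicate 1 it was 1.32 for the 34. The part of the melanoma, macrophage and CD8 T transcripts in these differences was not tested.

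**Figure D1:**
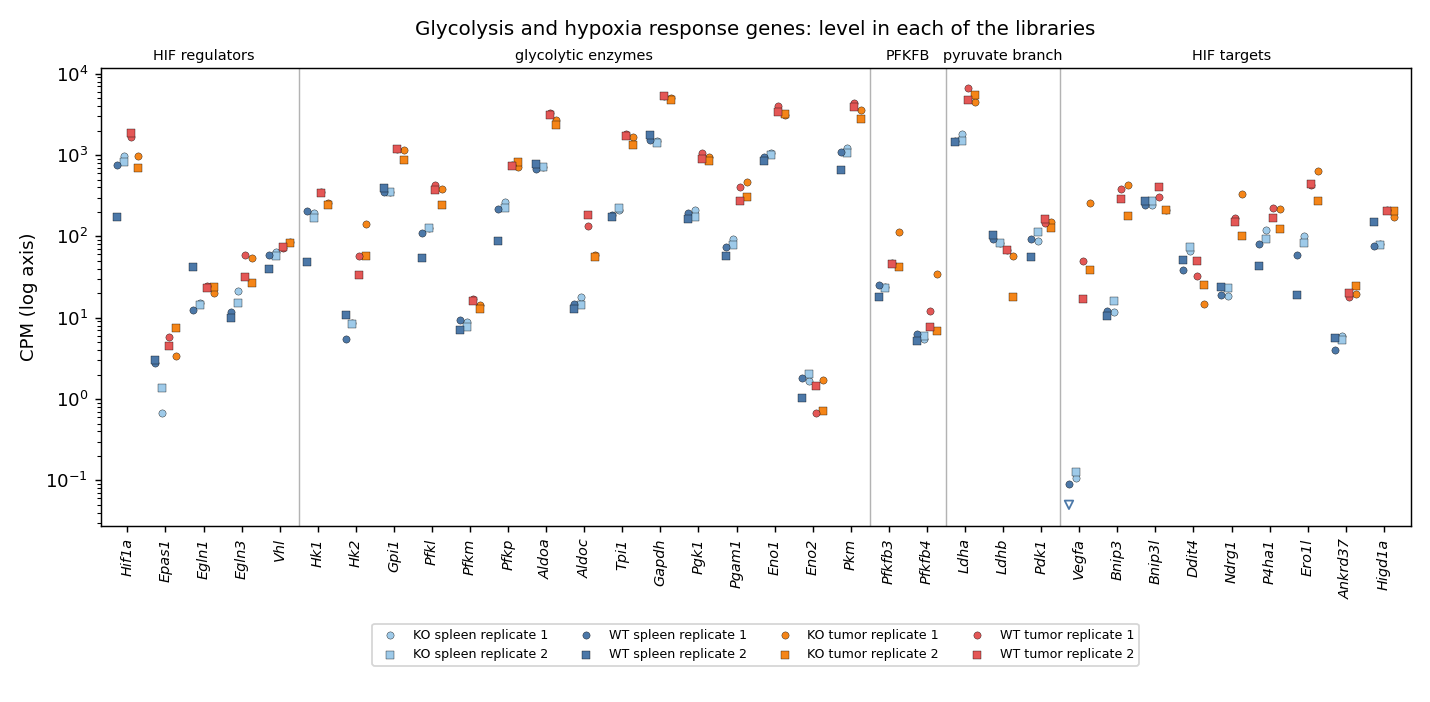
Level of each of the 34 genes in each of the 8 libraries, in CPM on a log axis, with colors for the 4 groups, circles for replicate 1, squares for replicate 2 and an open triangle for a count of 0. Most glycolytic enzymes form a lower spleen cluster and a higher tumor cluster, and Vegfa lies near the floor in spleen and between 16.8 and 260 CPM in tumor.

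Among the 34 genes 5 are regulators, the HIF subunits and the genes that control their stability. Hif1a, the HIF subunit most tied to glycolysis, lay at 765 and 172 CPM in WT spleen, 970 and 822 in KO spleen, 1670 and 1868 in WT tumor, and 986 and 701 in KO tumor. WT tumor was highest, WT spleen replicate 2 was far below every other library, and KO tumor overlapped with spleen. Over both genotypes its log2 fold change was 0.914 (SE 0.424, adjusted p 0.16), not called, with 0.557 without WT spleen replicate 2 and 1.66 (called) without WT spleen replicate 1. In WT it was 1.93 (SE 0.658, adjusted p 0.128), or 1.25 without WT spleen replicate 2 and 3.38 without WT spleen replicate 1, and in KO it was -0.0664 (SE 0.292, adjusted p 0.904). Epas1, the alternative HIF subunit HIF-2 alpha, was scarce, at 2.78 and 3 CPM in WT spleen, 0.666 and 1.37 in KO spleen, 5.71 and 4.52 in WT tumor, and 3.43 and 7.44 in KO tumor. Every tumor library was above every spleen library, and Epas1 rose by a log2 fold change of 1.62 (SE 0.418, adjusted p 0.0286), a call that held in 2 of the 8 fits without 1 library. Egln1, a prolyl hydroxylase that marks HIF for destruction, lay at 12.5 and 41.5 CPM in WT spleen, 15 and 14.3 in KO spleen, 24.3 and 23 in WT tumor, and 20.2 and 23.6 in KO tumor. WT spleen replicate 2 was the highest of the 8, the other spleen libraries were the lowest, and the log2 fold change of tumor over spleen was 0.191 (SE 0.362, adjusted p 0.741), with 0.742 without that library and -0.0912 without WT spleen replicate 1. Egln3, a prolyl hydroxylase that is itself a HIF target, lay at 11.9 and 10 CPM in WT spleen, 21.6 and 15 in KO spleen, 59.7 and 32 in WT tumor, and 55 and 26.4 in KO tumor. Its tumor libraries were all above its spleen libraries, and it rose by a log2 fold change of 1.61 (SE 0.336, adjusted p 0.014). Vhl, which recruits hydroxylated HIF for degradation, ranged from 40.2 to 64.6 CPM in spleen and from 72.9 to 85.5 CPM in tumor, without a call.

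The 15 enzymes of the glycolytic steps from hexokinase to pyruvate kinase were the largest group of these genes and held most of the calls. Over both genotypes 12 of the 15 were called higher, beside 11.3% of all genes tested, and Hk1, Pfkm and Eno2 were not. Hexokinase traps glucose in the cell, and its isozyme Hk1 lay at 206 and 49 CPM in WT spleen, 197 and 170 in KO spleen, 352 and 341 in WT tumor, and 258 and 246 in KO tumor. Tumor libraries were all above spleen libraries, WT spleen replicate 2 was the lowest, and the log2 fold change was 0.95 (SE 0.399, adjusted p 0.126), with 0.600 without that library and 1.67 (called) without WT spleen replicate 1. The inducible isozyme Hk2 lay at 5.42 and 10.9 CPM in WT spleen, 8.72 and 8.44 in KO spleen, 58 and 33.2 in WT tumor, and 143 and 56.8 in KO tumor. Tumor and spleen did not overlap, KO tumor replicate 1 was far above the rest, and Hk2 rose by a log2 fold change of 3.01 (SE 0.399, adjusted p 0.00255). Of the RPKM (CPM per kilobase of exon) of Hk1 and Hk2 together, Hk2 made up 3.62% and 24.1% in WT spleen, 5.96% and 6.62% in KO spleen, 19.0% and 12.2% in WT tumor, and 44.2% and 24.8% in KO tumor. The high spleen share was that of WT spleen replicate 2, which held the lowest Hk1 and the highest Hk2 of the spleen libraries. Gpi1, which turns glucose phosphate into fructose phosphate, ranged from 350 to 390 CPM in spleen and from 867 to 1195 CPM in tumor, and rose by a log2 fold change of 1.61 (SE 0.226, adjusted p 0.00323).

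Phosphofructokinase commits sugar to glycolysis, and its liver isozyme gene Pfkl lay at 110 and 54.8 CPM in WT spleen, 126 and 126 in KO spleen, 425 and 374 in WT tumor, and 385 and 240 in KO tumor. Tumor libraries were all above spleen libraries, and Pfkl rose by a log2 fold change of 1.79 (SE 0.296, adjusted p 0.0055). The platelet isozyme gene Pfkp lay at 218 and 87.4 CPM in WT spleen, 263 and 225 in KO spleen, 759 and 743 in WT tumor, and 718 and 818 in KO tumor. WT spleen replicate 2 was again the lowest, the tumor libraries lay close together, and Pfkp rose by a log2 fold change of 1.98 (SE 0.316, adjusted p 0.00495). In KO alone its log2 fold change was 1.67 (SE 0.229, adjusted p 0.0516). The muscle isozyme gene Pfkm, which did not pass the fold threshold, ranged from 7.07 to 9.25 CPM in spleen and from 12.6 to 16.9 CPM in tumor. Aldolase cuts the sugar into triose phosphates, and its main form here, Aldoa, lay at 673 and 768 CPM in WT spleen, 706 and 717 in KO spleen, 3267 and 3085 in WT tumor, and 2688 and 2315 in KO tumor. Spleen and tumor did not overlap, and Aldoa rose by a log2 fold change of 1.98 (SE 0.228, adjusted p 0.00151). The isozyme gene Aldoc lay at 14.8 and 12.7 CPM in WT spleen, 17.8 and 14.4 in KO spleen, 134 and 183 in WT tumor, and 59.8 and 55.1 in KO tumor. All tumor libraries were above all spleen libraries, and within tumor both KO libraries were below both WT libraries.

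Aldoc rose over both genotypes by 2.68 (SE 0.232, adjusted p 0.000704), with 3.53 (SE 0.47, adjusted p 0.00304) in WT and 1.85 (SE 0.237, adjusted p 0.0501) in KO. Its share of the RPKM of Aldoa and Aldoc together was 2.47% and 1.87% in WT spleen, 2.83% and 2.27% in KO spleen, 4.51% and 6.41% in WT tumor, and 2.5% and 2.67% in KO tumor. Only WT tumor stood above the other groups on that share. Tpi1, which interconverts the triose phosphates, lay at 183 and 171 CPM in WT spleen, 212 and 225 in KO spleen, 1832 and 1724 in WT tumor, and 1673 and 1334 in KO tumor. Its 4 spleen libraries were close together, far below the 4 tumor libraries, and Tpi1 had the smallest p of the 34 over both genotypes, with a log2 fold change of 3.06 (SE 0.235, adjusted p 0.000627). It was called in each genotype, with a log2 fold change of 3.33 (SE 0.493, adjusted p 0.00477) in WT and 2.8 (SE 0.273, adjusted p 0.0374) in KO. The call in KO was lost with the replicate number as a block and in the 2 fits without 1 KO spleen library. The KO log2 fold change of Tpi1 ran from 2.61 to 2.98 in the fits without 1 library.

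The payoff steps followed the same order. Gapdh, which oxidises the triose phosphate, ranged from 1407 to 1742 CPM in spleen and from 4734 to 5369 CPM in tumor, and rose by a log2 fold change of 1.73 (SE 0.229, adjusted p 0.00253). Pgk1, which makes ATP from bisphosphoglycerate, lay at 192 and 165 CPM in WT spleen, 211 and 174 in KO spleen, 1071 and 890 in WT tumor, and 934 and 850 in KO tumor. The spleen libraries were all far below the tumor libraries, and Pgk1 rose by a log2 fold change of 2.33 (SE 0.231, adjusted p 0.00093). By genotype its log2 fold change was 2.46 (SE 0.471, adjusted p 0.0144) in WT and 2.23 (SE 0.245, adjusted p 0.0431) in KO, where the call was lost in the same 3 fits. The KO value of Pgk1 ran from 2.12 to 2.39 in the fits without 1 library. Pgam1, the mutase of the next step, lay at 74.9 and 58.2 CPM in WT spleen, 92.4 and 79 in KO spleen, 402 and 275 in WT tumor, and 466 and 303 in KO tumor. Replicate 1 was above replicate 2 in each group, spleen and tumor did not overlap, and Pgam1 rose by a log2 fold change of 2.26 (SE 0.266, adjusted p 0.00161). Eno1, the main enolase, ranged from 848 to 1063 CPM in spleen and from 3086 to 3993 CPM in tumor, and rose by a log2 fold change of 1.83 (SE 0.228, adjusted p 0.00202). Eno2, the neuronal enolase, lay between 0.683 and 2.03 CPM in the 8 libraries, and spleen and tumor overlapped. Pkm, pyruvate kinase, ranged from 664 to 1210 CPM in spleen and from 2812 to 4358 CPM in tumor, and rose by a log2 fold change of 1.87 (SE 0.266, adjusted p 0.00333).

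Pfkfb3 and Pfkfb4 make and break down the sugar bisphosphate that activates phosphofructokinase. Pfkfb3 ranged from 18.1 to 25.2 CPM in spleen and from 42.0 to 112 CPM in tumor, with KO tumor replicate 1 highest, and rose by a log2 fold change of 1.41 (SE 0.326, adjusted p 0.0197), or 0.978 (not called) without that library. Pfkfb4 ranged from 5.21 to 6.35 CPM in spleen and from 6.81 to 34.1 CPM in tumor. Its log2 fold change was 1.31 (SE 0.478, adjusted p 0.0858), not called, with 0.529 without KO tumor replicate 1 and 1.72 (called) without KO tumor replicate 2. At the pyruvate branch, Ldha, which makes lactate, ranged from 1467 to 1832 CPM in spleen and from 4560 to 6605 CPM in tumor, and rose by a log2 fold change of 1.77 (SE 0.25, adjusted p 0.00327). Ldhb, whose product favors the reverse reaction, lay at 91.7 and 103 CPM in WT spleen, 83.8 and 82.1 in KO spleen, 67.8 and 68 in WT tumor, and 57.2 and 17.8 in KO tumor. It was the only gene of the 34 with every tumor library below every spleen library, KO tumor replicate 2 was far below the rest, and its log2 fold change was -0.832 (SE 0.342, adjusted p 0.12), not called. That value was -0.488 without KO tumor replicate 2 and -1.36 (called lower) without KO tumor replicate 1. Of the RPKM of Ldha and Ldhb together, Ldhb made up 11.4% and 12.9% in WT spleen, 8.80% and 10.4% in KO spleen, 2.12% and 2.93% in WT tumor, and 2.58% and 0.674% in KO tumor. All tumor shares were below all spleen shares. Pdk1, which blocks pyruvate entry into the mitochondrial cycle, ranged from 55.5 to 114 CPM in spleen and from 126 to 163 CPM in tumor, without a call.

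Of the 9 remaining targets, 7 were called higher over both genotypes, beside 11.3% of all genes tested, and Bnip3l and Ddit4 were not. Vegfa, the vessel growth factor, lay at 0.0898 and 0 CPM in WT spleen, 0.107 and 0.127 in KO spleen, 49.3 and 16.8 in WT tumor, and 260 and 38.4 in KO tumor. Spleen libraries held 13 counts in all and tumor libraries 11099, KO tumor replicate 1 was far above the rest, and the order of the 4 tumor libraries was that of Lyz2. The same order was found for 3 of the 34 genes (8.82%) and for 8.12% of 10299 genes over 5 CPM in tumor. The tumor to spleen ratio of Vegfa was 666 in WT (95% interval 228 to 3234, counting error only) and 1363 in KO (741 to 2843). These intervals leave out the spread between libraries. Its log2 fold change over both genotypes was 9.79 (SE 0.935, adjusted p 0.000871), with 9.31 (SE 1.05, adjusted p 0.00147) in WT and 10.3 (SE 1.39, adjusted p 0.0516) in KO, all of which rest on the 13 spleen counts. In the fits without 1 library it ran from 8.83 to 11.7 over both genotypes and from 8.36 to 12.9 in WT. In KO it was 8.32 without KO tumor replicate 1 and 11.1 without KO tumor replicate 2. The part of macrophage and melanoma transcripts in the Vegfa values was not tested.

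Bnip3, a mitophagy receptor, lay at 12 and 10.5 CPM in WT spleen, 11.8 and 16 in KO spleen, 380 and 288 in WT tumor, and 429 and 177 in KO tumor. Each tumor library was far above each spleen library, and Bnip3 rose by a log2 fold change of 4.67 (SE 0.362, adjusted p 0.000627). Within genotypes its log2 fold change was 4.9 (SE 0.511, adjusted p 0.00123) in WT and 4.47 (SE 0.572, adjusted p 0.0501) in KO, or 3.66 without KO tumor replicate 1 and 4.99 without KO tumor replicate 2. Its relative Bnip3l lay at 242 and 271 CPM in WT spleen, 242 and 273 in KO spleen, 306 and 409 in WT tumor, and 210 and 213 in KO tumor. WT tumor was highest, KO tumor lowest and spleen between them. Of the RPKM of Bnip3 and Bnip3l together, Bnip3 made up 7.77% and 6.16% in WT spleen, 7.66% and 9.11% in KO spleen, 67.9% and 54.6% in WT tumor, and 77.7% and 58.6% in KO tumor. The share was below 10% in every spleen library and above it in every tumor library. Ndrg1, a stress response gene, lay at 19.1 and 23.6 CPM in WT spleen, 18.4 and 23.2 in KO spleen, 170 and 150 in WT tumor, and 330 and 102 in KO tumor. Spleen libraries were close together and below all tumor libraries, KO tumor replicate 1 was highest, and Ndrg1 rose by a log2 fold change of 3.14 (SE 0.381, adjusted p 0.00179), with 2.9 (SE 0.453, adjusted p 0.00585) in WT and 3.41 (SE 0.658, adjusted p 0.064), not called, in KO. The KO value was 2.29 without KO tumor replicate 1 and 4.03 without KO tumor replicate 2.

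Ero1l, an oxidase that forms disulfide bonds in the endoplasmic reticulum, lay at 59.6 and 19 CPM in WT spleen, 102 and 82.7 in KO spleen, 434 and 445 in WT tumor, and 636 and 274 in KO tumor. Tumor was above spleen throughout, WT spleen replicate 2 was lowest, and Ero1l rose by a log2 fold change of 2.89 (SE 0.428, adjusted p 0.00388). In WT the log2 fold change was 3.49 (SE 0.606, adjusted p 0.00909), or 2.92 without WT spleen replicate 2 and 4.55 without WT spleen replicate 1. P4ha1, a collagen prolyl hydroxylase, lay at 80.5 and 42.7 CPM in WT spleen, 119 and 93.9 in KO spleen, 220 and 166 in WT tumor, and 215 and 124 in KO tumor. Its lowest tumor library was just above its highest spleen library, both of them KO, and it rose by a log2 fold change of 1.16 (SE 0.301, adjusted p 0.0291), or 0.963 without WT spleen replicate 2 and 0.944 without KO tumor replicate 1, both not called. Ddit4, an inhibitor of mTORC1, lay at 38.9 and 51.3 CPM in WT spleen, 65.8 and 73.4 in KO spleen, 32.4 and 49.3 in WT tumor, and 14.9 and 25.4 in KO tumor. KO spleen was highest and KO tumor lowest, the WT groups overlapped, and the log2 fold change over both genotypes was -0.966 (SE 0.271, adjusted p 0.0378), short of the fold threshold, though called lower at -1.03 without WT spleen replicate 1 and at -1.15 without KO tumor replicate 2. Ankrd37 ranged from 3.98 to 5.89 CPM in spleen and from 17.8 to 24.7 CPM in tumor, and rose by a log2 fold change of 1.98 (SE 0.275, adjusted p 0.00307). Higd1a, a mitochondrial protein gene, ranged from 75.4 to 149 CPM in spleen and from 173 to 213 CPM in tumor, and rose by a log2 fold change of 1.07 (SE 0.262, adjusted p 0.0243).

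**Figure D2:**
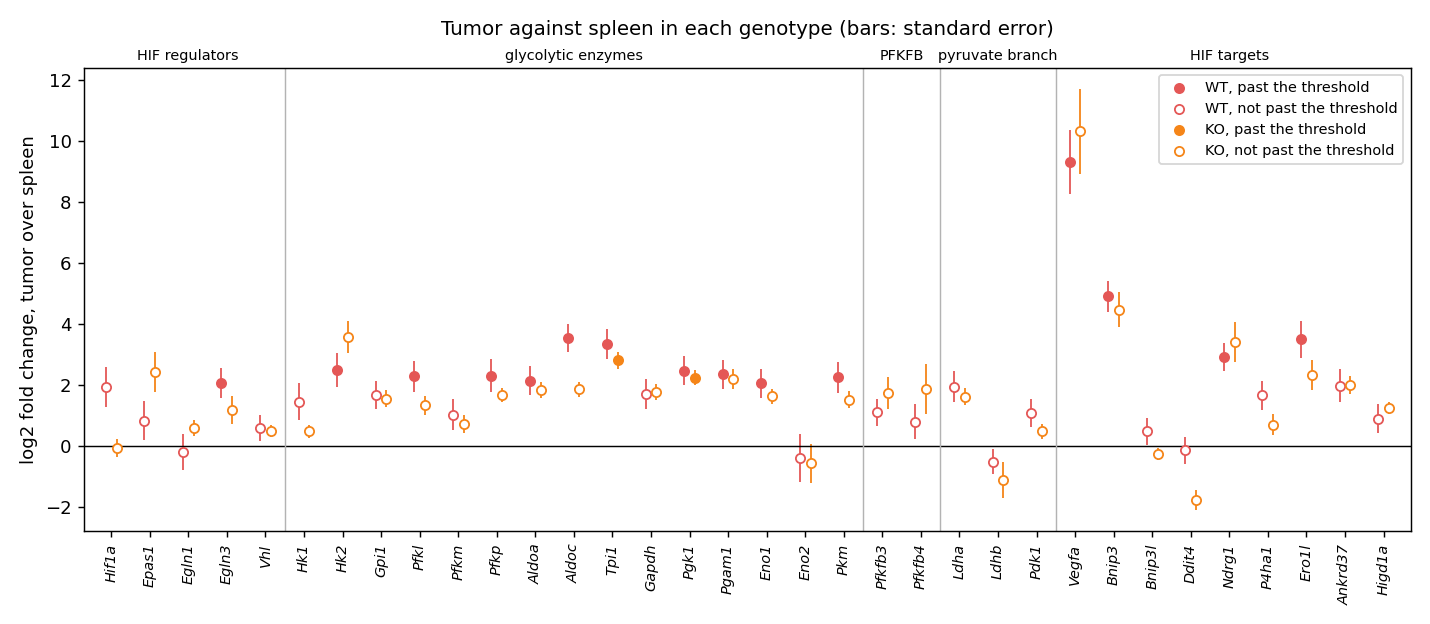
The log2 fold change of tumor over spleen for each of the 34 genes, in WT and in KO, with bars of 1 standard error and filled points for genes past the threshold. In WT 15 genes are filled and in KO 2, Tpi1 and Pgk1, while the medians are 1.93 and 1.62.

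Compared by level per length, Ldha was the most abundant of the 34 in all 4 groups, with a mean of 449 RPKM (SD 7.75) in WT spleen, 502 (SD 72.3) in KO spleen, 1717 (SD 394) in WT tumor and 1523 (SD 206) in KO tumor. Gapdh was next in each group, at 394 (SD 39.0), 352 (SD 16.3), 1292 (SD 10.1) and 1185 (SD 56.4) RPKM in the same order. In both tumor groups the difference between Ldha and Gapdh was of the order of the spread of Ldha. Reads in stretches shared with other genes, which were more frequent for Gapdh (18.2%) than for Ldha (1.28%), could lower the level of Gapdh, so the order of the 2 is uncertain. Such stretches were also frequent for Eno1 (59.0%). RPKM used the length of all exons, which was 3762 nt for Aldoa, 5379 for Eno1 and 4133 for Gapdh. Their longest transcripts were 1549, 2027 and 3289 nt, so the place of Gapdh above Aldoa and Eno1 is uncertain too. Vegfa was the lowest of the 34 in both spleen groups, and Eno2 was the lowest in both tumor groups.

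With KO compared to WT in tumor, edgeR called 0 of the 34, beside 0% of the 15935 genes tested. With the replicate number as a block, or with no filter on low counts, edgeR did call genes, and those counts are given under the processing below. At unadjusted p < 0.05 edgeR gave 0 higher and 2 lower (Aldoc and Hif1a), beside 6.34% higher and 3.53% lower of all genes. DESeq2 called 0 higher and 1 lower (Aldoc), beside 3.48% and 1.2% of genes with an adjusted p. Both KO libraries were below both WT libraries for 14 of the 34, beside 19.4% of all genes, and above them for 1 (Vhl), beside 18% of all genes. The median log2 fold change was -0.165 for the 34 and 0.0431 for all genes, and without KO tumor replicate 1 it was -0.437 for the 34. By role, 9 of the 15 glycolytic enzymes had both KO libraries below both WT libraries. A design of 2 libraries a group has little power, so a missed threshold does not show that the genotypes were alike.

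Aldoc had the smallest p of the 34 in that comparison, with a log2 fold change of -1.47 (SE 0.303, adjusted p 0.252) and a DESeq2 adjusted p of 0.0292, or -1.53 without KO tumor replicate 1. For Hif1a the log2 fold change was -1.07 (SE 0.347, adjusted p 0.409), or -1.34 without that library. Hif1a, Aldoc and Ldhb had the tumor library order of Foxp3, an order found for 3 of the 34 (8.82%) and 5.14% of 10299 genes. On the sum of the Treg and CD4 T markers, at 1499 and 3402 CPM, KO tumor replicate 1 lay below replicate 2, the reverse of Foxp3. The match thus holds for Foxp3 and not for that sum. The order of Lyz2 was described under Vegfa, that of Tyrp1 (melanoma) was found for 4 of the 34 (Pfkfb3, Pfkfb4, Bnip3 and Ndrg1, 11.8%) beside 6.15% of genes, and that of Cd8a for 0 beside 5.23%. Bnip3l gave a log2 fold change of -0.764 (SE 0.303, adjusted p 0.508). Ddit4 gave a log2 fold change of -1.02 (SE 0.424, adjusted p 0.528), or -0.684 without KO tumor replicate 1 and -1.48 without KO tumor replicate 2. Vegfa gave a log2 fold change of 2.17 (SE 0.996, adjusted p 0.576), which became 0.216 without KO tumor replicate 1 and 3.14 without WT tumor replicate 1. Hk2 gave a log2 fold change of 1.13 (SE 0.543, adjusted p 0.598), which became 0.316 without KO tumor replicate 1. Hk1 gave a log2 fold change of -0.463 (SE 0.274, adjusted p 0.69). Ldhb gave a log2 fold change of -0.862 (SE 0.572, adjusted p 0.733), or -1.94 without KO tumor replicate 1 and -0.268 without KO tumor replicate 2. Epas1 gave a log2 fold change of 0.0844 (SE 0.567, adjusted p 0.986), with -0.597 to 0.539 in the fits without 1 library. Treg and CD4 T markers were lower in both KO tumor libraries than in both WT tumor libraries for 7 of 8 genes, and their part in these differences was not tested.

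**Figure D3:**
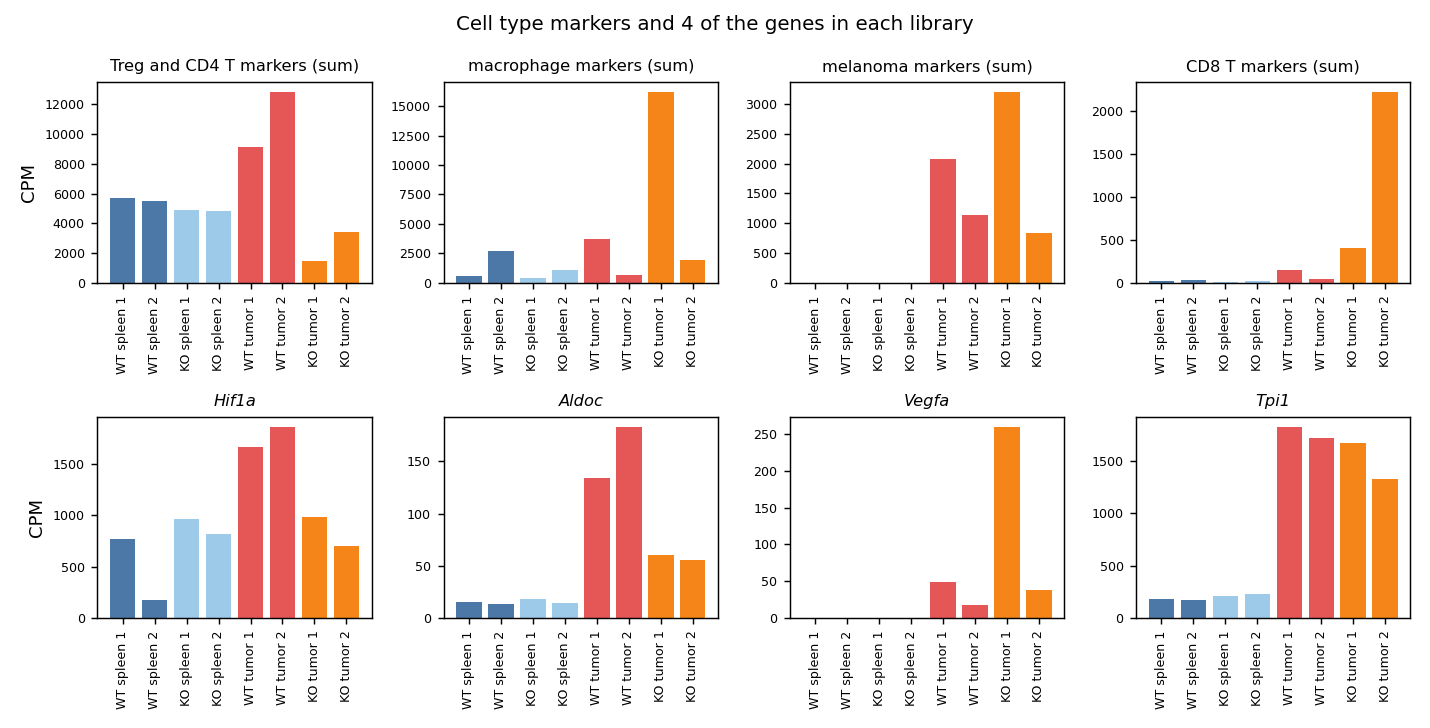
Summed CPM of the markers of Treg and CD4 T cells, macrophages, melanoma and CD8 T cells, and CPM of Hif1a, Aldoc, Vegfa and Tpi1, as bars for each of the 8 libraries. KO tumor replicate 1 holds the highest macrophage sum (16198) and the highest Vegfa (260), while WT tumor holds the highest Treg and CD4 T sums and the highest Hif1a and Aldoc.

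In spleen Vegfa was too scarce to be tested, and edgeR called 0 of the other 33 between KO and WT, beside 0% of the 16583 genes tested. At unadjusted p < 0.05 edgeR gave 0 higher and 1 lower (Epas1), beside 1.53% higher and 1.42% lower of all genes (2.95% together). DESeq2 called 0, beside 0.372% higher and 0.0444% lower of genes with an adjusted p (0.416% together). Both KO libraries were above both WT libraries for 10 of the 33, beside 16.4% of all genes, and below them for 4, beside 15.7%. Epas1 had a log2 fold change of -1.51 (SE 0.601, adjusted p 0.878), with -2.11 to -1.05 in the fits without 1 library. For the next 5 genes the difference depended on which WT spleen library was left out, given here as the value without replicate 2 and then the value without replicate 1. Ero1l gave a log2 fold change of 1.23 (SE 0.543, adjusted p 0.878), with 0.635 and 2.34. P4ha1 gave a log2 fold change of 0.787 (SE 0.405, adjusted p 0.878), with 0.407 and 1.38. Hif1a gave a log2 fold change of 0.932 (SE 0.654, adjusted p 0.878), with 0.229 and 2.44. Pfkl gave a log2 fold change of 0.608 (SE 0.412, adjusted p 0.878), with 0.196 and 1.26. Egln1 gave a log2 fold change of -0.887 (SE 0.566, adjusted p 0.878), with 0.234 and -1.44. Egln3 gave a log2 fold change of 0.733 (SE 0.375, adjusted p 0.878), with 0.475 to 0.981 in the fits without 1 library. Ddit4 gave a log2 fold change of 0.62 (SE 0.334, adjusted p 0.878), with 0.4997 to 0.841 in the fits without 1 library.

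For the interaction, the difference of the KO to WT difference between tumor and spleen, edgeR called 0 of the 34, beside 0% of 17870 genes. At unadjusted p < 0.05 edgeR gave 0 higher and 3 lower (Aldoc, Ddit4 and Hif1a), beside 5.08% higher and 2.75% lower of all genes (7.83% together). DESeq2 called 0, beside 1.27% higher and 0.585% lower of genes with an adjusted p (1.85% together). Aldoc had an interaction on the log2 scale of -1.7 (SE 0.44, adjusted p 0.333). For Ddit4 it was -1.65 (SE 0.54, adjusted p 0.48). For Hif1a it was -2 (SE 0.849, adjusted p 0.624), with -3.45 (without WT spleen replicate 1) to -1.30 (without WT spleen replicate 2) in the fits without 1 library. For Epas1 it was 1.59 (SE 0.821, adjusted p 0.713), with 0.940 to 2.20 in the fits without 1 library. The interaction of Vegfa is not read, since its spleen levels rest on 3 counts in WT and 10 in KO. The next 4 genes by p were Bnip3l with -0.764, Pfkl with -0.964, P4ha1 with -0.981 and Ero1l with -1.19, at edgeR adjusted p of 0.755 to 0.814. In the fits without 1 library these ran from -0.932 to -0.555 for Bnip3l, -1.56 to -0.552 for Pfkl, -1.52 to -0.601 for P4ha1 and -2.24 to -0.591 for Ero1l. The median interaction was -0.331 for the 34 and 0.0701 for all genes.

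Other genes of the same pathways give the setting. Of 49 further glycolysis and branch genes 38 could be tested, and edgeR called 7 higher and 1 lower in tumor over both genotypes, beside the 11.3% higher and 7.84% lower of all genes. The lactate exporter gene Slc16a3 lay at 16.9 and 8.39 CPM in WT spleen, 21.3 and 20.5 in KO spleen, 452 and 283 in WT tumor, and 499 and 226 in KO tumor. It was far higher in every tumor library and rose by a log2 fold change of 4.49 (SE 0.397, adjusted p 0.000704). The glucose transporter gene Slc2a1 lay at 65.2 and 56.1 CPM in WT spleen, 74.4 and 80.1 in KO spleen, 457 and 409 in WT tumor, and 693 and 354 in KO tumor. Tumor was above spleen throughout, and it rose by a log2 fold change of 2.8 (SE 0.282, adjusted p 0.00098). The transporter gene Slc2a3 lay at 182 and 81.9 CPM in WT spleen, 131 and 132 in KO spleen, 273 and 312 in WT tumor, and 107 and 428 in KO tumor. KO tumor replicate 1 was among the spleen values, and the log2 fold change was 1.09 (SE 0.436, adjusted p 0.112), not called. Pgm2 lay at 65.5 and 47.1 CPM in WT spleen, 69.3 and 78.9 in KO spleen, 222 and 235 in WT tumor, and 229 and 142 in KO tumor. Tumor was above spleen throughout, and it rose by a log2 fold change of 1.67 (SE 0.25, adjusted p 0.00397).

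Of 56 further HIF pathway genes and targets 52 could be tested, and edgeR called 19 higher and 1 lower in tumor over both genotypes, beside the same 11.3% and 7.84% of all genes. The adenylate kinase gene Ak4 lay at 0.21 and 0.107 CPM in WT spleen, 0.236 and 0.254 in KO spleen, 25 and 14 in WT tumor, and 36.4 and 8.68 in KO tumor. The carbonic anhydrase gene Car9 lay at 0.838 and 1.71 CPM in WT spleen, 0.322 and 0.634 in KO spleen, 29.5 and 23.9 in WT tumor, and 64.3 and 18.4 in KO tumor. The peptide hormone gene Adm lay at 0.0898 and 0.107 CPM in WT spleen, 0 and 0 in KO spleen, 9.34 and 4.66 in WT tumor, and 13.4 and 3.67 in KO tumor. All 3 were below 2 CPM in every spleen library and higher in each tumor library, with log2 fold changes of 6.7 (SE 0.612, adjusted p 0.000741) for Ak4 and 5.41 (SE 0.535, adjusted p 0.00093) for Car9. Adm had 3 counts in each WT spleen library and 0 in each KO spleen library, so its fitted log2 fold change over both genotypes, 8.62 (SE 0.809, adjusted p 0.00119), has no measured KO spleen level under it, and in WT it was 6.1 (SE 0.89, adjusted p 0.0045).

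Between KO and WT tumor edgeR called 0 genes of either list, at unadjusted p < 0.05 it gave 2 higher and 1 lower of the glycolysis and branch genes and 4 higher and 2 lower of the HIF genes, and DESeq2 called 1 and 5. These counts, of 37 and 51 genes tested by edgeR, stand beside 6.34% higher and 3.53% lower of all genes at unadjusted p < 0.05 (9.87% together), and 4.68% called by DESeq2 in either direction. The mitochondrial shuttle gene Gpd2 lay at 16.9 and 11.1 CPM in WT spleen, 23.8 and 23 in KO spleen, 63 and 24.6 in WT tumor, and 141 and 199 in KO tumor. Both KO tumor libraries were above both WT tumor libraries, with a log2 fold change of 1.95 (SE 0.523, adjusted p 0.319), or 2.77 without WT tumor replicate 1. Myc lay at 68.2 and 56.1 CPM in WT spleen, 53.9 and 61.7 in KO spleen, 65.3 and 89.9 in WT tumor, and 44.1 and 32.7 in KO tumor, with KO tumor lowest, and gave a log2 fold change of -1.02 (SE 0.33, adjusted p 0.409). Mlxip, a glucose sensing factor gene, lay at 49.6 and 49.1 CPM in WT spleen, 38.8 and 52.5 in KO spleen, 29.2 and 38.6 in WT tumor, and 66.1 and 55.3 in KO tumor, and gave a log2 fold change of 0.835 (SE 0.308, adjusted p 0.474). Siah2, which targets prolyl hydroxylases, lay at 12.4 and 16.7 CPM in WT spleen, 14.2 and 10.6 in KO spleen, 5.75 and 7.97 in WT tumor, and 57.3 and 48.6 in KO tumor, and gave a log2 fold change of 2.94 (SE 0.359, adjusted p 0.177). Nt5e, the gene of CD73, lay at 430 and 106 CPM in WT spleen, 475 and 367 in KO spleen, 172 and 216 in WT tumor, and 36.7 and 26.6 in KO tumor, and gave a log2 fold change of -2.62 (SE 0.331, adjusted p 0.177). Mxi1, a Myc antagonist gene, lay at 19.8 and 15.1 CPM in WT spleen, 19 and 18.7 in KO spleen, 25.4 and 22.1 in WT tumor, and 88.7 and 54.3 in KO tumor, and gave a log2 fold change of 1.59 (SE 0.357, adjusted p 0.265). These 6 were the genes with the smallest p of each list, so the lack of overlap between their tumor genotypes follows largely from the choice. Both KO tumor libraries were above both WT tumor libraries for 7 of the 37 glycolysis and branch genes and below them for 6. For the 51 HIF genes the counts were 7 above and 7 below. Of all genes 18% were above and 19.4% below. None of the 6 passed the edgeR threshold. DESeq2 called 4 of them, with adjusted p of 2.14e-07 for Siah2, 3.89e-06 for Nt5e, 0.0293 for Gpd2 and 0.0293 for Mxi1.

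Reads of some of the 34 genes are hard to assign. Exons of 13 of the 34 overlapped exons of another gene, and for Gpi1 (11.5% of exon bases), Pkm (15.3%), Bnip3 (22.3%), Higd1a (22.5%) and Ankrd37 (26.4%) the overlap was over 10%. The overlap of Pkm was on the same strand and those of the other 4 were on the opposite strand. Since the strand setting of the counting was not stated, it is not known whether opposite-strand reads entered the counts of those 4. In the longest GENCODE M21 transcript, 13 of the 34 shared stretches of 100 nt with other genes, most of all Pgk1 (67.0% of stretches), Eno1 (59.0%), Pgam1 (39.7%), Gapdh (18.2%) and Bnip3l (15.3%). Where such reads were dropped as not unique, levels of these genes come out too low. GC content of the transcripts ranged from 41.3% for Hif1a to 57.9% for Ddit4. The richest window of 200 nt ranged from 58.5% for Tpi1, Ldhb and Ndrg1 to 89.5% for Egln1. The median log2 fold change of tumor KO over WT was -0.143 for the 4 genes with a window over 75% and -0.165 for the other 30.

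Promoters were searched for the core of the hypoxia response element because most of the 34 genes were higher in tumor. RefSeq promoters (GRCm38.p6, 250 bases before to 50 after each start) were found for 31 of the 34, Ero1l under its symbol Ero1a, and not for Epas1, Bnip3l and Ndrg1. The letters ACGTG and GCGTG were sought on both strands, and matches that overlapped were counted as 1. ACGTG was in 19.6% and GCGTG in 32.4% of the 32851 promoter windows, and either of them in 43.8%. By symbol, taking the window with most matches, either core was in 46.7% of 27025 genes, in 68.9% of the 7875 with a mean over 5 CPM in these libraries, and in 27 of the 31 genes described here (87.1%). Of the 21 called higher in tumor with a promoter 19 held a core, and of the other 10 so did 8. The called genes without a core were Gpi1 and Tpi1, and Tpi1 had the smallest p of the 34 over both genotypes. Eno2 and Vhl, not called, held none either. ACGTG was in 21 of the 31 and GCGTG in 21, beside 30.3% and 57.2% of the 7875. A match describes letters and not a bound site.

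The stretches from the outermost matches with 15 bases on each side are shown for the 6 genes with the smallest p over both genotypes that held a core before their most upstream RefSeq start, to let a reader see the number and spacing of cores, with matches in capitals and each sequence on the strand of its gene from 5′ to 3′. Coordinates on GRCm38.p6 are chr7:138909522-138909638 (- strand) for Bnip3, chr11:78323008-78323042 (+ strand) for Aldoc, chrX:106186935-106186988 (+ strand) for Pgk1, chr19:41911681-41911802 (+ strand) for Pgam1, chr4:150236463-150236497 (+ strand) for Eno1 and chr6:125165798-125165842 (- strand) for Gapdh.
Bnip3: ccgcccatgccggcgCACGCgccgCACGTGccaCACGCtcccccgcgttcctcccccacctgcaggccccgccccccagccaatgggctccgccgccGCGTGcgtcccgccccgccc
Aldoc: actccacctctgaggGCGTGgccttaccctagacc
Pgk1: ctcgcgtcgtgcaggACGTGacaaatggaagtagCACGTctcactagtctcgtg
Pgam1: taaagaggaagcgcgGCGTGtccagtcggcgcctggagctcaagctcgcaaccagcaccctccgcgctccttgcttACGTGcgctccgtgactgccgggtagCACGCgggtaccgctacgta
Eno1: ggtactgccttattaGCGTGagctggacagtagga
Gapdh: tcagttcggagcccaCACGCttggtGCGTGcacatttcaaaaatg
In the annotation of the count files, the stretches of Gapdh and Aldoc lie within the gene, since its start there is further upstream than that of RefSeq. Before the RefSeq start, Bnip3 held 4 matches within 117 bases, Pgam1 held 3 within 122, Pgk1 held 2 within 54, Gapdh held 2 within 45, and Aldoc and Eno1 held 1 each. Together with the 50 bases after the start, the windows held 3 for Gapdh, 3 for Aldoc and 2 for Eno1.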

How the data were processed

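Reads of 150 bases from both ends were processed by the authors, who trimmed with Trimmomatic 0.36, aligned to GRCm38 with STAR 2.5.2b and made counts of unique reads in exons with featureCounts of Subread 1.5.2. The raw counts the authors deposited for 8 libraries were used here, and a normalized table with 8 per-sample columns was not used. Depth ranged from 27834676 to 43903859 counts per library, so that 3 counts correspond to 0.0644 to 0.112 CPM. Each pair of groups was fitted with edgeR 4.0.16 (TMM, filterByExpr, quasi-likelihood test, Benjamini-Hochberg over all genes tested) in R 4.3.3, and tumor against spleen over both genotypes and the interaction were fitted with all 8 libraries. Genes were called at adjusted p < 0.05 with a log2 fold change beyond 1 in either direction. The SE is the size of the log2 fold change divided by the square root of F. Alternatives were DESeq2 1.42.0 (the test of the study), its size factors, no filter on low counts, a replicate block, all 8 libraries in each fit, no minimum fold change and fits without 1 library.

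The members and lists were chosen with earlier results of these data known. Hif1a, Epas1, Vegfa and the 8 genes with the smallest p of each comparison are given with the value in every library. The rule for the further genes could be read as 3 over both lists or 3 of each list; the second reading was taken after values were seen. The grouping by role, the GC cut of 75%, the shared stretches of 100 nt, the library orders, the choice of promoters and the fit without 2 libraries were also set with the data in view and carry no test. Transcripts were those of GENCODE M21, which is close to but not exactly the annotation of the files, and sequence features were computed with Python 3.11.15. A check of the fits on simulated data covered the sign and size of planted changes, and set no condition on missed or false calls.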

Additional observations from a re-analysis of the deposited data

Results flagged for a closer look

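For 4 of the 34 genes (11.8%) the order of KO and WT libraries was opposite in tumor and spleen without overlap in either tissue, beside 5.35% of 17870 genes tested. Both KO libraries were above both WT libraries in spleen and below them in tumor. The interaction on the log2 scale was -0.545 for Tpi1 (edgeR adjusted p 0.828), -0.438 for Eno1 (0.862), -2.00 for Hif1a (0.624) and -1.65 for Ddit4 (0.480), and none of the 4 passed the threshold. With 2 libraries a group, such an order is a description. WT spleen replicate 2, which stood apart by transcript length, was the lowest spleen library for Tpi1, Eno1 and Hif1a.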

How the results depend on the processing

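Counts are of all genes and, where given, of the 34 genes called. A fit without 1 library leaves a group of 1, so its spread comes from the other groups alone and its call counts say little of stability. In WT tumor against spleen edgeR called 981 genes and 15 of the 34; DESeq2 called 1805 genes and the fit with no filter on low counts 1922. Without 1 library the counts ran from 213 to 1401 genes and from 6 to 20 of the 34, and the median log2 fold change of the 34 from 1.71 to 2.07 (1.93 with all). In KO tumor against spleen edgeR called 228 genes and 2 of the 34, DESeq2 3813 and 22, no filter 3183 and 22, and all 8 libraries in the fit 1743 and 18. The replicate block gave 1 of the 34, a count not read here as a result about these genes. A block that crossed the replicate numbers gave 2934 genes and 21 of the 34. It was added after same-numbered KO libraries were seen to deviate in opposite directions, so its higher counts say nothing of stability. Without 1 library the counts ran from 0 (without KO spleen replicate 1) to 4958 genes and from 0 to 24 of the 34, while the median ran from 1.32 to 1.72 (1.62 with all). Hif1a in KO ran from -0.357 to 0.182 (-0.0664 with all). In tumor KO against WT edgeR called 0 genes, with 1573 at unadjusted p < 0.05, beside 761 by DESeq2 (1 of the 34), 1072 with no filter (2), 728 with the replicate block (1) and 135 with all 8 libraries. Without 1 library the median ran from -0.437 to -0.0874 (-0.165 with all). Epas1 there was 0.0844, -0.00918 with the block and -0.597 to 0.539 without 1 library. In spleen KO against WT edgeR called 0 genes, with 489 at unadjusted p < 0.05, beside 75 by DESeq2, 167 with no filter and 101 with the block. Without 1 library the counts ran from 21 to 3972 genes and from 0 to 7 of the 34, the median from 0.129 to 0.402 (0.202 with all) and Egln1 from -1.44 to 0.234 (-0.887 with all). Tumor against spleen over both genotypes gave 3423 genes and 1597 to 3450 without 1 library, with a median of 1.64 to 1.79 (1.68 with all) and of 1.58 without WT spleen replicate 2 and KO tumor replicate 1. For the interaction edgeR called 0 genes, with 1399 at unadjusted p < 0.05, beside 307 by DESeq2 and 752 with no filter (1 of the 34). Its median without 1 library ran from -0.589 to -0.193 (-0.331 with all), and Vegfa, whose spleen levels rest on 3 counts in WT and 10 in KO and whose interaction is not read, ran from -2.81 to 1.95 (0.966 with all). The labels do not say whether libraries with the same number came from the same mouse, and correlations of same-numbered deviations between groups were -0.220 to 0.234, so the block is given as an alternative.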
